A study of Mus musculus with 16 samples.

Results

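A set of 34 genes of vascular endothelium and of its barrier to the blood was followed in trigeminal ganglia of wild-type mice and of mice lacking Nogo-A. The genes were chosen by name, and all 34 were matched by symbol among the 25719 gene identifiers of the files. Polyadenylated RNA of whole ganglia was sequenced in 16 libraries. The 4 groups of 4 libraries were wild-type (WT) and Nogo-A KO (KO) ganglia on embryonic day 14 (E14), and WT and KO ganglia on postnatal day 25 (P25). Nogo-A is the long protein product of Rtn4, and both genotypes were otherwise untreated as far as the labels say. The labels do not state the genetic background, the sex of the animals or the design of the deletion. Each library held 1 ganglion, and some E14 libraries of 1 genotype are numbered alike but for R or L, so that they may share an animal.

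Endothelial cells line every vessel. Vascular endothelial growth factor acts on them through Kdr, angiopoietins act through Tek, and cadherin and claudin junctions hold the cells together. In the nervous system the vessel wall matures into a barrier: tight junctions close the gap between cells, carriers bring in glucose and lipids, pumps of the P-glycoprotein kind return drugs to the blood, and transfer by vesicles is held low. Vessels of a sensory ganglion are known to be more permeable around the neuronal cell bodies than those of the nerve itself. Several of the 34 genes are also used outside endothelium. Slc2a1 is found in perineurium and in red cell precursors, Cd34 in fibroblasts and blood progenitors, Podxl in neurons, Vwf and Icam2 in platelets or leukocytes, and Fli1 in blood cells.

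Promoter sequence bears on these genes because factors of the ETS family, among them the products of Erg and Fli1, are known regulators of endothelial genes. RefSeq promoters of GRCm38.p6, which run from 250 bases before to 50 bases after a gene's start, were found for 20 of the 34 genes. The promoters of 3 genes that were higher at P25 (Slco1a4, Cldn5 and Mfsd2a) and of 2 that were lower (Tie1 and Robo4) are shown 5′ to 3′ on the gene's strand. Capitals mark the letters AGGAAG or CGGAAG, among the forms that ETS factors can bind, on either strand. Shorter or other forms of the ETS site were not searched for and are not marked.

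Slco1a4 (chr6:141856171-141856470, minus strand): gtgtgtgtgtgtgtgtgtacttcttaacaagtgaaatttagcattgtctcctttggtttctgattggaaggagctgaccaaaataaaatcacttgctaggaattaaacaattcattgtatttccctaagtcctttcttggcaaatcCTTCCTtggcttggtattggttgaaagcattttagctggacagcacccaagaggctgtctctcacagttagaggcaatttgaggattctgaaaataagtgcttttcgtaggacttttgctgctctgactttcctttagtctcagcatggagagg
Cldn5 (chr16:18776597-18776896, plus strand): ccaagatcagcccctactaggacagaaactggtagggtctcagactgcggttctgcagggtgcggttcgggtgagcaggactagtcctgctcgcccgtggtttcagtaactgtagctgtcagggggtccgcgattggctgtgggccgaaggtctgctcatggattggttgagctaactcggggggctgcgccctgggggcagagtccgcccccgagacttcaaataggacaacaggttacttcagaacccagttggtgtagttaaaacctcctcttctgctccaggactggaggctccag
Mfsd2a (chr4:122961139-122961438, minus strand): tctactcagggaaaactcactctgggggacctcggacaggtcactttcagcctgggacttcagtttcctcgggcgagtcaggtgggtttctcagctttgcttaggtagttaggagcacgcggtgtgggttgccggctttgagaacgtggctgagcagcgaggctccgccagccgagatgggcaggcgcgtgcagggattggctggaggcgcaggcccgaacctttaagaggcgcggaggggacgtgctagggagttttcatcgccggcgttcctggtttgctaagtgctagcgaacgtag
Tie1 (chr4:118489800-118490099, minus strand): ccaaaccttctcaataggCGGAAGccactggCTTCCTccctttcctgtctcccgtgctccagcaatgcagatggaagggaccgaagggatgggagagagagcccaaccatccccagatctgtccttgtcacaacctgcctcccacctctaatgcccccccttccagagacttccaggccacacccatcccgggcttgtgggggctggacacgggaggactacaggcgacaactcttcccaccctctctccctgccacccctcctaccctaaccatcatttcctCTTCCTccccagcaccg
Robo4 (chr9:37401722-37402021, plus strand): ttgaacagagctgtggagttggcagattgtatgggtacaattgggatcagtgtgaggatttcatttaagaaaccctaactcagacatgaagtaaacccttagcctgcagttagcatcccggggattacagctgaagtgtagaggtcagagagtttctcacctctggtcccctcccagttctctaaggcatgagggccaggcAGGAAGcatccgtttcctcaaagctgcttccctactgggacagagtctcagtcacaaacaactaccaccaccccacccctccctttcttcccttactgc

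The Tie1 promoter held 3 matches to AGGAAG or CGGAAG, the Slco1a4 and Robo4 promoters 1 each, and those of Cldn5 and Mfsd2a 0. These counts cover those letters alone, so 0 does not mean that a promoter lacks every ETS site. Over all 25 promoters of the 20 genes, 14 held AGGAAG, or 56%, against 35.4% of the 32851 promoters of the same length in the table. CGGAAG was in 1 of the 25, or 4%, against 16.9% of all. The letters ACAAAG and ACAATG, which SOX factors can bind, were in 24% and 8% of the 25 promoters against 18.7% and 12.6% of all. Both genes that rose and genes that fell held AGGAAG. Several of the 25 promoters belong to the same gene, and a match of letters is a description and not a bound site.

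Library totals ran from 15532373 to 29562379 counts, and no pair of libraries was identical. Levels are given in CPM, the count scaled to a common library total after TMM normalization, and errors are standard deviations (SD) over 4 libraries. The defining endothelial genes Cdh5 and Pecam1 were measured in all 16 libraries, at no less than 13.9 and 11.1 CPM. The summed level of the 34 genes ran from 578 to 848 CPM in E14 WT, 625 to 737 CPM in E14 KO, 445 to 520 CPM in P25 WT and 423 to 691 CPM in P25 KO. Of the libraries, E14 WT replicate 2 had the highest sum at E14 and P25 KO replicate 4 the lowest of all, with P25 KO replicate 3 the highest at P25. In whole tissue, fewer endothelial cells, less RNA per endothelial cell and a larger share of RNA from other cells cannot be told apart.

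Genes can be ranked against each other only per length, here as CPM per kilobase of the longest coding transcript in GENCODE M21. In E14 WT the leading genes were Plvap at 23.3 ± 8.12, Cdh5 at 20.3 ± 1.87, Egfl7 at 20.2 ± 8.01, Cd34 at 17.6 ± 2.29 and Aplnr at 16.1 ± 5.91 CPM per kilobase (SD, n = 4), and these neighbours did not differ beyond their spread. In P25 WT the order was led by Egfl7 at 30.3 ± 6.70, Mfsd2a at 23.7 ± 1.74, Cd34 at 22.7 ± 0.664, Slc2a1 at 22.1 ± 2.35, Ly6c1 at 19.2 ± 4.47 and Cldn5 at 13.3 ± 3.80. Plvap and Cdh5 stood at 4.23 ± 1.31 and 5.61 ± 1.74 there. The P25 KO libraries had the same first 6 genes, from Egfl7 at 33.3 ± 7.15 to Cldn5 at 18.0 ± 7.35 CPM per kilobase. Mfsd2a, Slc2a1, Ly6c1 and Cldn5 thus stood among the first 6 genes at P25, and Plvap, Cdh5 and Aplnr did not. Slc2a1 was already level with Aplnr at E14, at 15.5 ± 3.41 CPM per kilobase in WT. In E14 KO Slc2a1 stood at 15.9 ± 2.30 and Aplnr at 14.8 ± 1.98 CPM per kilobase.

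**Figure D1:**
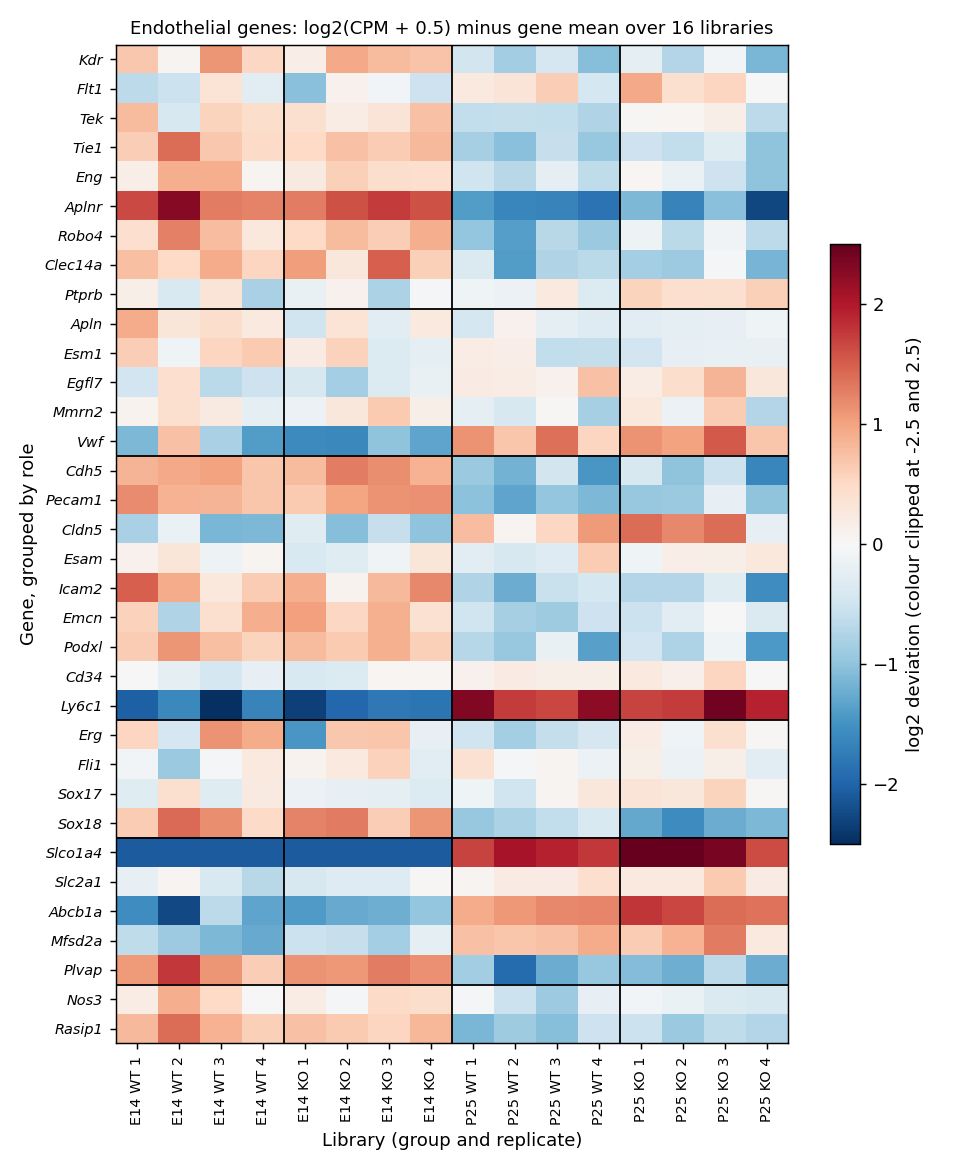
Each row is 1 of the 34 genes, grouped by role from receptors (top) to intracellular effectors (bottom), and each column 1 of the 16 libraries. Colour gives log2(CPM + 0.5) minus the gene's mean over the 16 libraries; most rows change between the 8 E14 and the 8 P25 columns, and Slco1a4, Abcb1a and Ly6c1 run against Aplnr, Plvap and Cdh5.

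From E14 to P25 the endothelial genes split. Cdh5, Pecam1, Tie1 and Kdr were among those that fell in both genotypes, and Egfl7, Vwf and Ly6c1 among those that rose. The apelin receptor gene fell most in each genotype, followed by Plvap in WT and by Sox18 in KO. The claudin gene Cldn5 and the 4 transporter genes rose, led by Slco1a4. A gene is said to be called, or to have risen or fallen, where the edgeR quasi-likelihood test gave an adjusted p under 0.05 over all 15109 genes tested; all 34 members passed the filter on low counts. In WT 26 of the 34 were called, 8 higher and 18 lower at P25. In all genes tested 59.6% were called, 29.7% higher and 29.8% lower. In KO 25 of 34 were called, 11 higher and 14 lower, where 59.8% of all genes were called, 30.6% higher and 29.2% lower. The median log2 fold change over the 34 was -1.01 in WT and -0.39 in KO, against 0.00 and 0.01 over all genes. The median in KO was -0.21 with a stricter filter and -0.22 in a fit to the KO libraries. Over the settings the median ran from -1.06 to -0.86 in WT and from -0.45 to -0.21 in KO. With a library left out it ran from -1.09 to -0.86 in WT and from -0.48 to -0.27 in KO. Of the 34 genes 22 were called the same way in both genotypes, 8 higher and 14 lower. The share of all genes called the same way was not counted. Over all genes tested the log2 fold changes in WT and KO correlated at 0.951 (Pearson r), so such likeness was not particular to these genes. Tek, Apln, Erg and Nos3 were called in WT alone, and Flt1, Ptprb and Cd34 in KO alone, but no gene was called in the test of the difference between the genotypes, described last. In WT the 4 P25 libraries lay above all 4 E14 libraries for 6 of the 34 genes and below them for 16, where 26.1% and 24.2% of all genes did so. In KO they lay above for 10 and below for 16, where 30.5% and 29.3% of all genes did so.

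**Figure D2:**
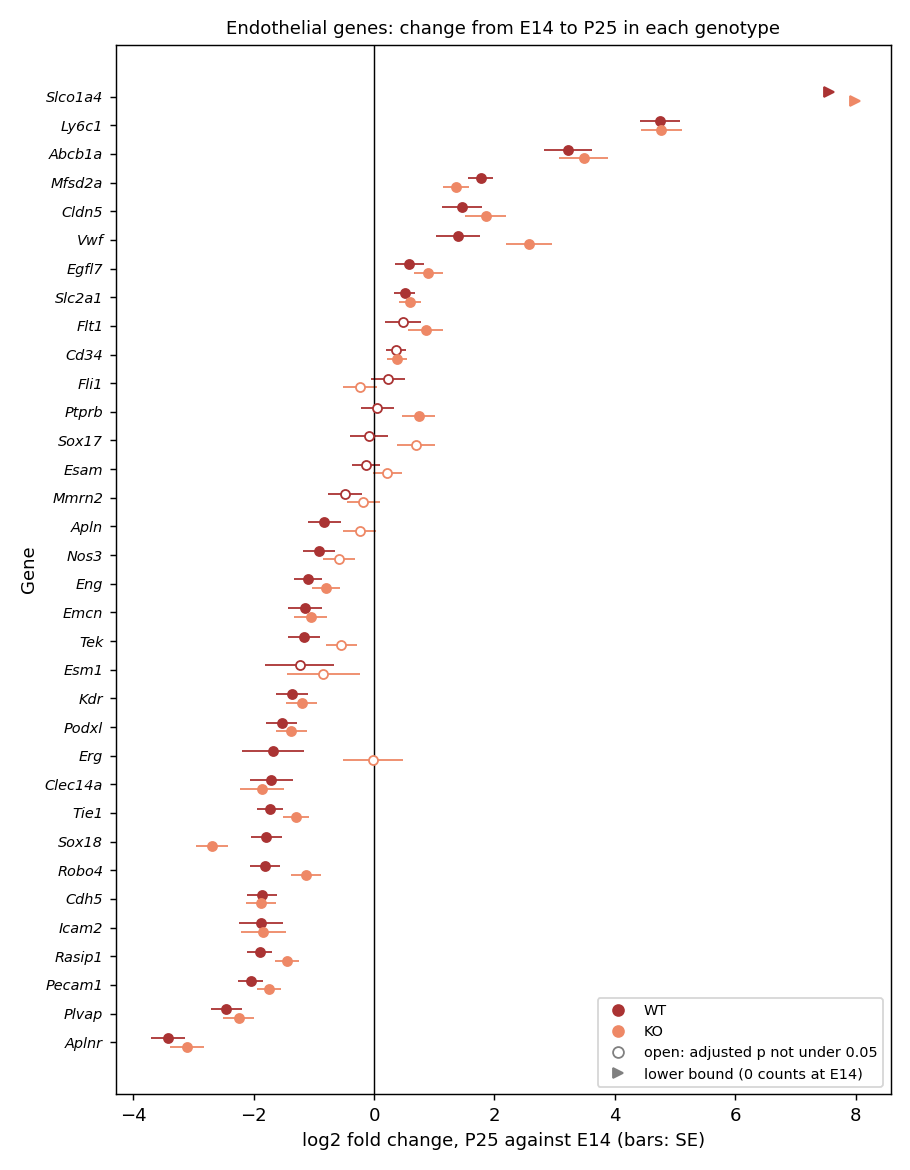
The horizontal axis is the log2 fold change of P25 against E14 for each of the 34 genes, in WT (dark) and KO (light), with bars for the standard error; open points were not called. Arrowheads mark the lower bound for Slco1a4, which had 0 counts at E14; genes run from Aplnr at -3.42 in WT to Ly6c1 at 4.75 below Slco1a4.

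Among ligands and secreted proteins, Vwf rose. It encodes von Willebrand factor, the multimer that endothelium stores and that binds platelets (ENSMUSG00000001930, GRCm38 chromosome 6, 125546774 to 125686679). E14 WT libraries read 7.38, 28.1, 9.27 and 6.0 CPM and E14 KO libraries 5.18, 5.13, 8.04 and 6.38 CPM. P25 WT libraries read 36.8, 27.2, 44.1 and 24.2 CPM and P25 KO libraries 37.0, 34, 49.0 and 27.3 CPM. In KO all P25 libraries lay above all E14 libraries, while in WT replicate 2 of E14 stood above 2 P25 libraries. The log2 fold change was 1.39 in WT (SE 0.37, edgeR adjusted p = 0.00283) and 2.57 in KO (SE 0.38, adjusted p = 9.62e-06). Without E14 WT replicate 2 the value in WT was 2.13.

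Egfl7, a secreted protein of growing vessels and the host gene of a vascular microRNA, rose by 0.59 on the log2 scale in WT (adjusted p = 0.0403) and by 0.90 in KO (adjusted p = 0.00316). In WT its call was lost without E14 WT replicate 1, 3 or 4 or P25 WT replicate 4 (edgeR adjusted p = 0.0608, 0.0678, 0.0584 and 0.150) and in a fit to the WT libraries alone (0.0982), and the value was 0.90 without E14 WT replicate 2. Apln, the ligand of the apelin receptor made by sprouting tip cells, read 5.73, 3.54, 3.98 and 3.37 CPM in E14 WT and 1.83, 3.69, 2.21 and 3.38 CPM in E14 KO. It read 1.93, 3.03, 2.30 and 2.12 CPM in P25 WT and 2.22, 2.33, 2.37 and 2.54 CPM in P25 KO. All P25 WT libraries were below all E14 WT libraries and the KO libraries overlapped. Apln fell in WT (log2 fold change -0.83, SE 0.27, edgeR adjusted p = 0.0139) and had -0.24 in KO (adjusted p = 0.471). Its WT call rested on E14 WT replicate 1, without which the log2 fold change was -0.57 (adjusted p = 0.0962). Esm1, another tip cell product, was low in every group, with means from 0.276 to 0.775 CPM, and was called in neither genotype (adjusted p = 0.0675 and 0.239), although it was called in WT without E14 WT replicate 2 (adjusted p = 0.0326) or P25 WT replicate 1 (0.0411). Mmrn2, which encodes a matrix partner of Clec14a and was at 10.7 and 7.69 CPM in WT, was also not called (adjusted p = 0.147 and 0.593).

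Of 9 receptors 7 fell in WT and 6 in KO, where 29.8% and 29.2% of all genes fell, and the apelin receptor fell furthest. Aplnr (ENSMUSG00000044338, GRCm38 chromosome 2, 85136225 to 85139923) encodes a receptor of sprouting and venous endothelium. E14 libraries read 58.4, 90.9, 45.3 and 43.8 CPM in WT and 45.0, 55.8, 62.6 and 56.2 CPM in KO. At P25 the values were 6.64, 5.52, 5.38 and 4.71 CPM in WT and 8.11, 5.43, 8.63 and 3.37 CPM in KO. The stages were far apart, with the highest P25 library at 8.63 CPM and the lowest E14 library at 43.8 CPM. The fall was 10.7-fold in WT (log2 fold change -3.42, SE 0.29, edgeR adjusted p = 3.62e-09) and 8.60-fold in KO (log2 fold change -3.10, SE 0.28, adjusted p = 1.25e-08).

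Kdr, the main signalling receptor for vascular endothelial growth factor, fell from 26.5 ± 7.93 to 10.3 ± 2.29 CPM in WT (SD, n = 4) and from 27.3 ± 6.05 to 11.8 ± 3.87 CPM in KO. Its log2 fold changes were -1.36 (edgeR adjusted p = 0.000190) and -1.21 (adjusted p = 0.000592). Flt1, the receptor of the same family known as a decoy that binds the factor with little signalling, did not fall. It had log2 fold changes of 0.48 in WT (adjusted p = 0.168) and 0.86 in KO (adjusted p = 0.0177). The call in KO was lost without E14 KO replicate 1 (adjusted p = 0.0670) or P25 KO replicate 1 (0.0757), and Flt1 was called in WT without E14 WT replicate 3 (0.0296). Per length, the level of Flt1 in WT was below that of Kdr at E14 (1.42 ± 0.50 against 4.47 ± 1.34 CPM per kilobase) and did not differ from it beyond the spread at P25 (1.99 ± 0.582 against 1.74 ± 0.387 CPM per kilobase).

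The angiopoietin receptors Tie1 and Tek were lower in each P25 library than in any E14 library of the same genotype. Tie1, the orphan partner of Tek, fell by 1.73 on the log2 scale in WT (edgeR adjusted p = 1.09e-06) and by 1.29 in KO (adjusted p = 3.30e-05). Tek, the receptor that keeps vessels quiescent under angiopoietin-1 (ENSMUSG00000006386, GRCm38 chromosome 4, 94739289 to 94874976), read 9.40, 3.84, 7.90 and 7.23 CPM in E14 WT and 7.08, 6.07, 6.70 and 9.0 CPM in E14 KO. At P25 it read 3.22, 3.29, 3.27 and 2.90 CPM in WT and 5.35, 5.43, 5.89 and 3.13 CPM in KO. The stages did not overlap, yet Tek was called in WT (log2 fold change -1.16, adjusted p = 0.000852) and not in KO (-0.54, adjusted p = 0.0794), where it was called without E14 WT replicate 2 (adjusted p = 0.0251) and with same-numbered E14 ganglia summed (0.0461). Ptprb, the phosphatase that restrains Tek, held 0.05 in WT (adjusted p = 0.882) and rose in KO (0.74, adjusted p = 0.0243), where its call was lost without E14 KO replicate 3 (0.0707) or P25 KO replicate 1 (0.0508). Robo4, a guidance receptor that stabilises vessels, Eng, a co-receptor for the transforming growth factor family, and Clec14a, a vessel lectin, fell in both genotypes. Their log2 fold changes were -1.81, -1.10 and -1.71 in WT and -1.13, -0.80 and -1.86 in KO, with adjusted p-values of at most 0.00631.

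Junction and surface proteins moved in both directions. Cdh5 encodes VE-cadherin, the adherens junction protein of endothelium (ENSMUSG00000031871, GRCm38 chromosome 8, 104101625 to 104144511). It read 79.5, 85.1, 88.9 and 71.7 CPM in E14 WT and 77.0, 108, 99.8 and 81.2 CPM in E14 KO. In P25 libraries it read 22.9, 19.0, 31.9 and 15.8 CPM in WT and 33.5, 21.8, 30.3 and 13.9 CPM in KO. No P25 library reached any E14 library, and the log2 fold changes were -1.86 in WT (SE 0.25, edgeR adjusted p = 2.32e-06) and -1.88 in KO (SE 0.25, adjusted p = 2.05e-06). Pecam1, the adhesion protein CD31 (ENSMUSG00000020717, GRCm38 chromosome 11, 106654217 to 106750628), read 65.1, 52.2, 51.5 and 46.5 CPM in E14 WT and 45.2, 56.9, 62.5 and 63.0 CPM in E14 KO. Its P25 values were 13.7, 11.1, 14.3 and 12.8 CPM in WT and 14.6, 14.7, 24.6 and 13.8 CPM in KO. The stages did not overlap, and the fall was 4.14-fold in WT (adjusted p = 3.60e-08) and 3.36-fold in KO (adjusted p = 2.89e-07).

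Icam2, a ligand of leukocyte integrins (ENSMUSG00000001029, GRCm38 chromosome 11, 106377656 to 106388075), was low at P25. The E14 values were 9.49, 6.28, 3.75 and 5.0 CPM in WT and 6.13, 3.27, 5.71 and 7.71 CPM in KO. The P25 values were 1.61, 1.01, 1.90 and 2.12 CPM in WT and 1.65, 1.64, 2.37 and 0.714 CPM in KO. All P25 libraries lay below all E14 libraries of their genotype, with log2 fold changes of -1.88 (edgeR adjusted p = 0.000201) and -1.84 (adjusted p = 0.000265). Podxl and Emcn, sialomucins of the vessel surface, fell too, by 2.90-fold and 2.21-fold in WT and 2.60-fold and 2.08-fold in KO (largest adjusted p = 0.00284).

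Claudin-5 went the other way. Cldn5, the dominant claudin of barrier endothelium (ENSMUSG00000041378, GRCm38 chromosome 16, 18776847 to 18778262), read 6.51, 10.6, 5.12 and 5.17 CPM in E14 WT and 9.54, 5.41, 7.81 and 5.62 CPM in E14 KO. It read 20.6, 12.5, 17.1 and 25.2 CPM in P25 WT and 32, 27.8, 32.2 and 10.2 CPM in P25 KO. All P25 libraries of a genotype lay above its E14 libraries, although P25 KO replicate 4 was only just above the highest E14 KO library. Cldn5 rose 2.76-fold in WT (log2 fold change 1.47, SE 0.33, edgeR adjusted p = 0.000768) and 3.61-fold in KO (log2 fold change 1.85, SE 0.33, adjusted p = 8.28e-05).

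Ly6c1, a surface antigen of mature capillary endothelium (ENSMUSG00000079018, GRCm38 chromosome 15, 75044018 to 75048830), was near the bottom of the list at E14. Its libraries read 0.504, 0.854, 0.227 and 0.789 CPM in E14 WT and 0.316, 0.560, 0.699 and 0.667 CPM in E14 KO. At P25 they read 19.97, 13.3, 12.6 and 18.9 CPM in WT and 12.8, 13.3, 21.4 and 15.1 CPM in KO. Every P25 library was above every E14 library, with log2 fold changes of 4.75 in WT (SE 0.34, edgeR adjusted p = 3.02e-10) and 4.77 in KO (SE 0.34, adjusted p = 3.38e-10). Ly6c1 has a near-identical neighbour, Ly6c2, which monocytes express, so the share of reads it was given is uncertain. Esam, an immunoglobulin protein of tight junctions, was not called (adjusted p = 0.650 and 0.437). Cd34 stood at 45.0 ± 5.85 and 57.9 ± 1.70 CPM in WT (adjusted p = 0.0631) and at 47.3 ± 7.82 and 61.7 ± 10.6 CPM in KO (adjusted p = 0.0493). Both values lay close to the threshold: the WT call was gained without E14 WT replicate 1 (adjusted p = 0.0214), E14 KO replicate 2, 3 or 4 (0.0304, 0.0367 and 0.0353) or P25 KO replicate 2 or 4 (0.0422 and 0.0353), and by DESeq2 (0.0300). The KO call of Cd34 was lost without E14 KO replicate 1 or 2 (0.142 and 0.102), P25 WT replicate 1 or 3 (0.0594 and 0.0578) or P25 KO replicate 1 or 3 (0.0822 and 0.190), and with a replicate block (0.0691).

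Of the barrier transport and permeability genes, all 4 transporters rose and Plvap fell, in both genotypes. The shares of all genes that rose and fell were 29.7% and 29.8% in WT and 30.6% and 29.2% in KO. Slco1a4, an organic anion carrier of brain endothelium (ENSMUSG00000030237, GRCm38 chromosome 6, 141805440 to 141856199), had 0 counts in all 8 E14 libraries. At P25 its values were 6.28, 8.26, 7.46 and 6.65 CPM in WT and 11.6, 12.8, 10.5 and 6.07 CPM in KO, from 732 and 960 counts. Set against a floor of 3 counts over the E14 group, it was at least 187-fold higher in WT and at least 255-fold higher in KO (edgeR adjusted p = 3.86e-09 and 2.03e-09). Slco1a4 has close relatives in the same gene family, so reads may have been shared among them at P25.

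Abcb1a encodes P-glycoprotein, the efflux pump of barrier endothelium (ENSMUSG00000040584, GRCm38 chromosome 5, 8660077 to 8748575). Its E14 values were 0.413, 0.0610, 1.19 and 0.570 CPM in WT and 0.506, 0.607, 0.641 and 0.857 CPM in KO. Its P25 values were 4.55, 5.18, 5.67 and 5.68 CPM in WT and 8.73, 8.02, 6.48 and 6.35 CPM in KO. The stages were well apart, and the gene rose 9.33-fold in WT (log2 fold change 3.22, SE 0.40, edgeR adjusted p = 1.06e-06) and 11.2-fold in KO (log2 fold change 3.48, SE 0.40, adjusted p = 3.38e-07). Its close paralog Abcb1b, which can share reads with it, rose as well, by 1.88 and 3.24 on the log2 scale.

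Mfsd2a carries lysophospholipids of docosahexaenoic acid and holds vesicle transfer low (ENSMUSG00000028655, GRCm38 chromosome 4, 122946850 to 122961188). E14 libraries read 18.8, 15.6, 13.2 and 12.0 CPM in WT and 20.3, 19.7, 16.1 and 25.0 CPM in KO. P25 libraries read 49.7, 48.0, 49.4 and 56.4 CPM in WT and 46.2, 54.1, 73.3 and 35.1 CPM in KO. Each P25 library stood above all E14 libraries, with log2 fold changes of 1.77 in WT (SE 0.21, edgeR adjusted p = 6.85e-07) and 1.36 in KO (SE 0.21, adjusted p = 1.58e-05).

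Slc2a1, the glucose carrier GLUT1 (ENSMUSG00000028645, GRCm38 chromosome 4, 119108711 to 119137983), changed least of the 5. It read 53.3, 64.3, 47.1 and 37.8 CPM in E14 WT and 46.3, 49.1, 48.9 and 62.9 CPM in E14 KO. The P25 values were 64.3, 70.5, 71.1 and 82.6 CPM in WT and 72.9, 72.5, 97.2 and 70.5 CPM in KO. In WT replicate 2 of E14 was level with replicate 1 of P25, and in KO the stages did not overlap. Its log2 fold change was 0.51 in WT (SE 0.18, edgeR adjusted p = 0.0176) and 0.59 in KO (SE 0.18, adjusted p = 0.00684). The WT call was lost without P25 WT replicate 4 (adjusted p = 0.0501) and in a fit to the WT libraries alone (0.0622).

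Plvap forms the diaphragms of fenestrae and transcytotic vesicles and is a marker of leaky vessels (ENSMUSG00000034845, GRCm38 chromosome 8, 71497765 to 71511752). Its E14 libraries read 42.0, 68.9, 43.4 and 30.6 CPM in WT and 43.8, 42.8, 49.1 and 44.3 CPM in KO. At P25 they read 10.6, 4.85, 8.11 and 10.1 CPM in WT and 9.14, 8.23, 12.4 and 8.10 CPM in KO. The lowest E14 library, at 30.6 CPM, was above the highest P25 library, at 12.4 CPM. The fall was 5.49-fold in WT (SE of the log2 value 0.26, edgeR adjusted p = 9.20e-08) and 4.76-fold in KO (SE of the log2 value 0.26, adjusted p = 2.88e-07).

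**Figure D3:**
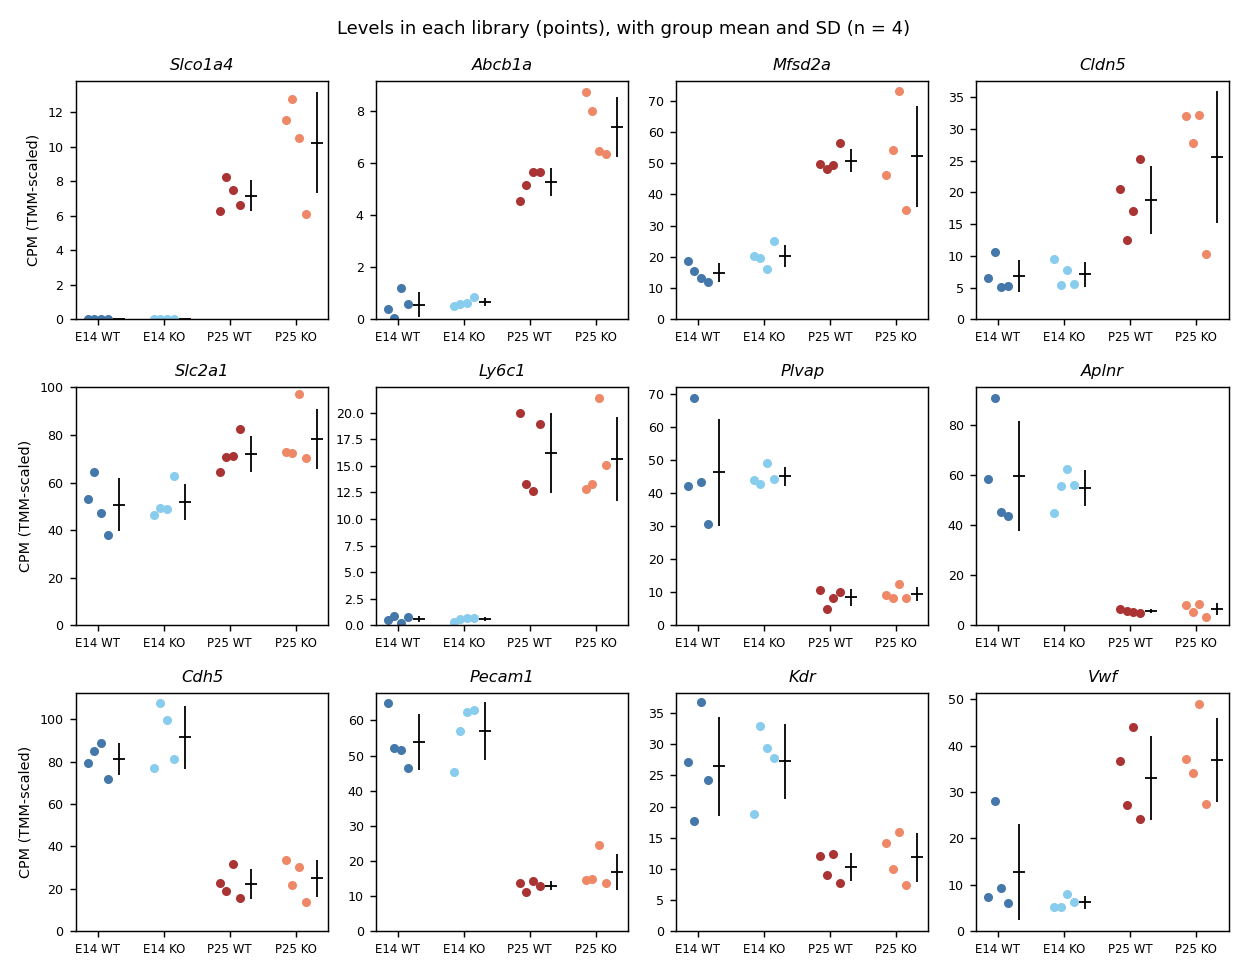
Each panel gives the TMM-scaled CPM of 1 gene in the 16 libraries (points) by group, with the group mean and SD (n = 4) in black. Slco1a4 is at 0 in the 8 E14 libraries and between 6.07 and 12.8 CPM at P25, while Plvap, Aplnr, Cdh5, Pecam1 and Kdr are lower in the P25 libraries than in the E14 libraries of their genotype.

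The 4 transcription factors were less uniform. Sox18, a factor of vascular and lymphatic development (ENSMUSG00000046470, GRCm38 chromosome 2, 181669836 to 181671640), read 7.70, 13.7, 11.3 and 6.92 CPM in E14 WT and 12.0, 12.6, 7.63 and 11 CPM in E14 KO. It read 2.25, 2.57, 2.98 and 3.59 CPM in P25 WT and 1.69, 1.29, 1.73 and 1.94 CPM in P25 KO. All P25 libraries were below all E14 libraries, and it fell in WT (log2 fold change -1.79, SE 0.26, edgeR adjusted p = 6.35e-06) and in KO (-2.69, SE 0.27, adjusted p = 5.30e-08). Erg, the ETS factor that maintains endothelial identity (ENSMUSG00000040732, GRCm38 chromosome 16, 95359169 to 95586593), read 2.25, 0.915, 3.64 and 3.11 CPM in E14 WT and 0.190, 2.52, 2.56 and 1.14 CPM in E14 KO. It read 0.845, 0.548, 0.754 and 0.927 CPM in P25 WT and 1.65, 1.29, 2.01 and 1.43 CPM in P25 KO. The E14 values were widely spread, and the lowest E14 library lay within the P25 range in WT and below it in KO. Erg fell in WT (-1.68, SE 0.51, adjusted p = 0.00803) and had -0.02 in KO (SE 0.50, adjusted p = 0.975). Fli1, its relative, and Sox17, an arterial factor, were called in neither genotype (adjusted p = 0.490 and 0.825 in WT, 0.496 and 0.0653 in KO). Sox17 was called in KO without E14 WT replicate 2 (adjusted p = 0.0456), P25 WT replicate 2 (0.0477) or P25 KO replicate 4 (0.0482) and by DESeq2 (0.0446).

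Both intracellular effectors were lower at P25. Rasip1, a Ras-interacting protein needed for the vessel lumen (ENSMUSG00000044562, GRCm38 chromosome 7, 45627488 to 45639093), read 22.9, 34.5, 24.0 and 19.7 CPM in E14 WT and 21.6, 20.4, 18.9 and 23.2 CPM in E14 KO. The P25 values were 5.56, 6.74, 5.89 and 8.85 CPM in WT and 8.65, 6.51, 8.12 and 7.54 CPM in KO. No P25 value came near an E14 value, and the log2 fold changes were -1.90 (edgeR adjusted p = 1.48e-07) and -1.45 (adjusted p = 4.78e-06). Nos3, the endothelial nitric oxide synthase, fell in WT from 6.11 ± 1.88 to 3.23 ± 0.959 CPM (adjusted p = 0.00600). It stood at 5.40 ± 0.955 and 3.61 ± 0.464 CPM in KO (adjusted p = 0.0684), where it was called with E14 WT replicate 2 left out (0.0354), with E14 KO replicate 2 left out (0.0474) and with library totals alone (0.0407).

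A ratio of 2 genes within a library does not depend on the library's total or its scaling. Cdh5 and Pecam1 fell alike: the mean log2 ratio of Pecam1 to Cdh5 moved by -0.14 in WT and 0.16 in KO, and the stages overlapped. Relative to Cdh5, the mean log2 ratio of Cldn5 went from -3.63 ± 0.46 to -0.25 ± 0.69 in WT (SD, n = 4) and from -3.71 ± 0.54 to -0.02 ± 0.33 in KO. The ratios of Mfsd2a, Slc2a1, Abcb1a and Vwf to Cdh5 moved up by 3.69, 2.44, 5.76 and 3.54 in WT and by 3.27, 2.54, 5.46 and 4.51 in KO. The ratios of Egfl7, Cd34, Flt1 and Ly6c1 moved up as well, by 2.54, 2.28, 2.39 and 6.82 in WT and by 2.84, 2.33, 2.83 and 6.78 in KO, so the shift was not limited to barrier genes. For each of these 9 genes all 8 P25 ratios were above all 8 E14 ratios, against Cdh5 and against Pecam1. Both denominators fell, so a gene that held its level also moves up in ratio, and Cd34 and Flt1 were not called in WT. Kdr, Tek, Tie1, Robo4 and Erg moved by 0.57, 0.81, 0.21, 0.12 and 0.36 against Cdh5 in WT. In KO they moved by 0.71, 1.37, 0.63, 0.80 and 2.47. Sox18 moved by 0.14 in WT and -0.74 in KO. The stages overlapped for these genes against Cdh5, and Tek did not overlap against Pecam1. Aplnr moved further down than Cdh5, by -1.46 in WT and -1.25 in KO, with all P25 ratios below all E14 ratios. Plvap did not separate in this way: its ratio to Cdh5 moved by -0.56 and -0.33 and the stages overlapped. The ratios are a description made after the values were seen, and Slc2a1 can come from cells other than endothelium.

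**Figure D4:**
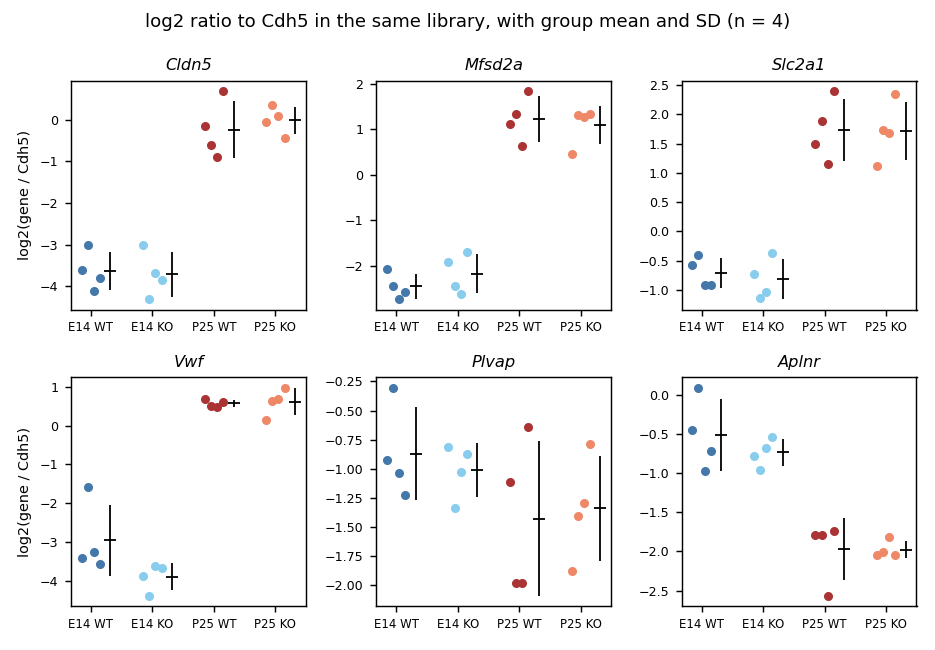
Each panel gives the log2 ratio of a gene's CPM to that of Cdh5 in the same library (points) by group, with the group mean and SD (n = 4); the vertical axes differ and do not start at 0. Cldn5, Mfsd2a, Slc2a1 and Vwf are higher in all 8 P25 libraries, Aplnr is lower, and Plvap overlaps between the stages.

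Other genes of these pathways were counted from lists named by pathway. Of 12 other genes of vascular growth factor and angiopoietin signalling, 3 rose and 3 fell in WT, and 7 rose and 3 fell in KO. Over all genes 29.7% rose and 29.8% fell in WT, and 30.6% rose and 29.2% fell in KO, which is the background for this list and those that follow. The list's median log2 fold change was 0.43 in WT and 0.78 in KO. Angpt2, the ligand that opposes angiopoietin-1 at Tek, rose by 3.00 on the log2 scale in WT (edgeR adjusted p = 1.40e-06), while Vegfc and the co-receptor Nrp1 had -2.80 and -2.70 (adjusted p = 4.53e-06 and 3.26e-06). Of 11 arterial, venous and Notch genes 2 rose and 8 fell in each genotype, with a median of -1.08 in WT and -1.13 in KO, and with the arterial connexin Gja5 at -2.72 and the tip cell ligand Dll4 at -2.12 in WT (adjusted p = 1.47e-05 and 2.05e-06). The kinase gene Bmx had 2 counts in E14 WT and 45 in P25 WT, a 17.3-fold rise in CPM (95% counting interval 4.52 to 147).

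Of 14 other junction genes 7 rose and 3 fell in WT, and 9 rose and 2 fell in KO, with medians of 0.47 and 0.98; the share that fell was no higher than in all genes (29.8% and 29.2%). The tight junction protein occludin (Ocln) rose by 2.28 in WT (edgeR adjusted p = 0.00732), as did the junctional adhesion molecule Jam2, by 1.84 (adjusted p = 0.000485). Cldn19, the claudin of Schwann cells, rose by 9.90 (adjusted p = 1.57e-12). Among 14 other barrier transporters 9 rose and 2 fell in WT, and 8 rose and 3 fell in KO, where 29.7% and 30.6% of all genes rose, with medians of 0.90 and 0.73. The thyroxine carrier Slco1c1 had 3 counts in E14 WT and 298 in P25 WT, a 76.3-fold rise in CPM (95% counting interval 25.9 to 372). The organic anion transporter Slc22a8 rose by 4.57 on the log2 scale and the taurine transporter Slc6a6 had -1.98 in WT (adjusted p = 1.41e-05 and 4.09e-08).

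Of 12 genes of Wnt and norrin signalling, which induces the barrier in brain and retina, 2 rose and 6 fell in WT, and 3 rose and 3 fell in KO, with medians of -0.31 and -0.24; both shares in KO were below those of all genes (30.6% and 29.2%). The ligand genes Ndp and Wnt7a rose by 4.06 and 2.97 in WT (edgeR adjusted p = 3.78e-09 and 7.79e-08), whereas the Wnt7 co-receptor gene Reck had -1.26 (adjusted p = 8.44e-05). Of 20 further endothelial genes 6 rose and 7 fell in WT, with a median log2 fold change of 0.01, and 7 rose and 7 fell in KO, with a median of 0.37. These shares are near those of all genes (29.7% and 29.8% in WT, 30.6% and 29.2% in KO), and the summed level of the 20 genes ran from 424 to 559.6 CPM at E14 and 651 to 756 CPM at P25. Ecscr, a sialomucin-like surface protein, rose by 2.35, and the transcription factor genes Sox7 and Bcl6b had -2.23 and -2.09 in WT (adjusted p = 7.70e-07, 1.96e-05 and 4.70e-06).

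Markers of other cells moved between the stages as well. The summed level of 7 satellite glia and Schwann cell markers ran from 752 to 1131 CPM over the 8 E14 libraries and 14358 to 32737 CPM over the 8 P25 libraries, and 5 of 7 rose in each genotype. For 8 erythroid markers the ranges were 572 to 1220.1 and 53.5 to 129 CPM, and all 7 that were tested fell. The 11 mural cell markers summed to 159.9 to 312 CPM at E14 and 203 to 283 CPM at P25, with 5 risen and 3 fallen in each genotype. The 5 fibroblast markers summed to 491 to 1007 CPM at E14 and 1249 to 1580.2 CPM at P25, with 3 risen in WT and 4 in KO. Perineurial markers, Slc2a1 among them, summed to 71.6 to 114 and 157 to 251 CPM over 6 genes, with Lypd2 at 0 counts at E14, and 4 of 5 tested genes rose in each genotype. The 5 lymphatic markers summed to 52.7 to 78.3 and 102 to 233 CPM, with 1 risen and 1 fallen in WT and 2 risen and 1 fallen in KO. Leukocyte and platelet markers summed to 162 to 326 and 215 to 334 CPM over 10 genes, with Gp9 at 0 counts at P25, and 4 of 7 tested genes rose and 1 fell in each genotype. The 7 sensory neuron markers summed to 10220.000 to 17198 and 7527 to 9979 CPM, with 2 risen and 4 fallen in each genotype. A CPM value is a share of the whole library, so these shifts and those of the endothelial genes stand in the same total, and their part in the results was not tested.

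At E14 no endothelial gene was called between KO and WT. Of all genes 3, or 0.0199%, were called. Of the 34 genes 14 had a positive log2 fold change and 19 a negative one, with Slco1a4 at 0 counts, where 43.3% of all genes were positive, and the median was -0.04, as it was over all genes. Without E14 WT replicate 2 the count of positive genes was 20 and the median 0.06. The genotypes overlapped for all 34 genes, while 0.523% of all genes were higher and 1.11% lower in every KO library. An unadjusted p under 0.05 was reached by 2 of the 34, Vwf and Mfsd2a, where 4.86% of all genes reached it.

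By unadjusted p the leading 5 endothelial genes at E14 were Vwf, Mfsd2a, Apln, Rasip1 and Fli1, and their values in each library, Fli1 apart, stand above. Vwf had a log2 fold change of -1.03 (SE 0.37, unadjusted p = 0.0123, edgeR adjusted p = 0.942). That value rested on WT replicate 2 at 28.1 CPM, without which it was -0.29. Of the E14 libraries, that one also had the lowest TMM factor, 0.855, and the highest sums of leukocyte and platelet markers (326 CPM), mural markers (312 CPM), glial markers (1131 CPM), fibroblast markers (1007 CPM), perineurial markers (114 CPM) and sensory neuron markers (17198 CPM). Its sum of lymphatic markers was the lowest at E14 (52.7 CPM). A sum is led by the most abundant genes of a list. By the mean of log2(CPM + 0.5) over a list, the same library was the lowest at E14 for sensory neuron (8.39), glial (5.90) and fibroblast markers (5.31). It was the highest for perineurial markers (2.13) and neither for mural or leukocyte and platelet markers. The part of these marker levels in the result was not tested. Mfsd2a had 0.44 (SE 0.21, adjusted p = 0.942), with 1 KO library below the highest WT library. Apln and Rasip1 had -0.57 and -0.26 (adjusted p = 0.942 and 0.942). Without WT replicate 1 Apln had -0.35, and without WT replicate 2 Rasip1 had -0.078. With same-numbered ganglia summed Rasip1 had -0.17. Fli1 read 3.62, 1.77, 3.64 and 4.60 CPM in WT and 4.04, 4.62, 5.88 and 3.10 CPM in KO, with 0.36 (adjusted p = 0.942), and 5.07, 3.71, 3.98 and 3.36 CPM in WT and 4.28, 3.36, 4.29 and 3.10 CPM in KO at P25. For Fli1 at E14, leaving out WT replicate 2 gave 0.15, leaving out WT replicate 4 gave 0.57 and leaving out KO replicate 3 gave 0.21. The 95% intervals of the log2 fold change at E14 were -0.33 to 0.67 for Cdh5, -0.32 to 0.48 for Pecam1, -0.50 to 0.59 for Kdr, -0.64 to 0.75 for Cldn5 and -0.54 to 0.47 for Plvap, which bound the differences that these libraries allow.

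At P25 no endothelial gene was called either, and 7 of all genes, or 0.0463%, were. Of the 34 genes 29 had a positive log2 fold change, where 46.4% of all genes did, with a median of 0.17 against -0.02 over all genes. Without KO replicate 3 the count of positive genes was 22 and the median 0.092. Without KO replicate 4 the median was 0.32, and without WT replicate 1 or 3 it was 0.27 and 0.28. The KO libraries were themselves unequal: the 34 genes summed to 566, 527, 691 and 423 CPM in replicates 1 to 4, against 488, 445, 520 and 501 CPM in WT. Of the P25 libraries, KO replicate 3 also had the highest sum of satellite glia and Schwann cell markers, 32737 CPM, and of mural markers, 283 CPM. Its sums of perineurial markers (251 CPM) and erythroid markers (129 CPM) were the highest at P25 too. Those of fibroblast, lymphatic, sensory neuron and leukocyte and platelet markers were not. KO replicate 4 had the lowest glial sum, 14358 CPM. Over the marker lists, 7 of 7 erythroid genes (median log2 fold change 0.39), 4 of 5 lymphatic genes (0.32), 4 of 5 fibroblast genes (0.10), 6 of 11 mural genes (0.18) and 2 of 7 glial genes (-0.05) were positive at P25. So were 3 of 5 perineurial genes (0.04), 4 of 7 sensory neuron genes (0.01) and 2 of 7 leukocyte and platelet genes (-0.17). The part of these differences in the endothelial values was not tested.

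All 9 receptors had positive log2 fold changes at P25, from 0.10 for Clec14a to 0.67 for Robo4. Robo4 read 11.7, 21.6, 15.3 and 10.5 CPM in E14 WT and 12.5, 15.4, 13.5 and 16.8 CPM in E14 KO, and 4.19, 3.03, 5.20 and 4.33 CPM in P25 WT and 7.95, 5.26, 8.21 and 5.32 CPM in P25 KO. At P25 the lowest KO library was above the highest WT library, if only narrowly, and the log2 fold change was 0.67 (SE 0.25, unadjusted p = 0.0142, edgeR adjusted p = 1). Ptprb read 5.87, 3.90, 6.71 and 2.80 CPM in E14 WT and 4.55, 5.74, 2.85 and 5.14 CPM in E14 KO, and 4.83, 4.72, 6.35 and 4.06 CPM in P25 WT and 8.03, 7.24, 7.12 and 8.21 CPM in P25 KO. Its P25 groups did not overlap, with a log2 fold change of 0.62 (SE 0.27, unadjusted p = 0.0328, adjusted p = 1). Tek, with KO replicate 4 among the WT libraries, had 0.64 (SE 0.27, unadjusted p = 0.0251, adjusted p = 1).

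Sox18 and Erg, both transcription factors, lay on opposite sides at P25. For Sox18 each KO library was below each WT library, with a log2 fold change of -0.77 (SE 0.27, unadjusted p = 0.00895, edgeR adjusted p = 1). For Erg each KO library was above each WT library, with 1.04 (SE 0.51, unadjusted p = 0.0560, adjusted p = 1), at P25 levels of at most 2.01 CPM. Abcb1a was the only other gene of the 34 whose P25 groups did not overlap, with KO higher (0.49, SE 0.34, adjusted p = 1). In all, 4 of the 34 genes were higher and 1 lower in every KO library at P25, where 2.05% and 1.28% of all genes were. An unadjusted p under 0.05 was reached by 4 of the 34 (Sox18, Robo4, Tek and Ptprb), where 1.87% of all genes reached it.

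Barrier genes did not differ in a called way at P25. The 95% intervals of the log2 fold change were -0.23 to 1.10 for Cldn5, -0.06 to 1.09 for Slco1a4, -0.22 to 1.19 for Abcb1a, -0.39 to 0.47 for Mfsd2a, -0.25 to 0.49 for Slc2a1 and -0.35 to 0.69 for Plvap. For Cldn5 and Slco1a4, KO replicates 1, 2 and 3 lay above all WT libraries and KO replicate 4 below them. Of the further pathway lists no gene was called at either stage. The 20 further endothelial genes were evenly split at P25, with 10 positive and a median of 0.01. The lowest unadjusted p-values of the pathway lists at P25 were those of She, an adaptor gene of endothelium, with a log2 fold change of 0.61 (unadjusted p = 0.0215, edgeR adjusted p = 1), and Angpt2, with 0.80 (unadjusted p = 0.0300, adjusted p = 1). Angpt2 read 17.4, 18.3, 19.5 and 18.9 CPM in the P25 WT libraries and 21.2, 22.8, 23.8 and 61.2 CPM in the P25 KO libraries. Its value rested on KO replicate 4, without which the log2 fold change was 0.29 (unadjusted p = 0.362).

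**Figure D5:**
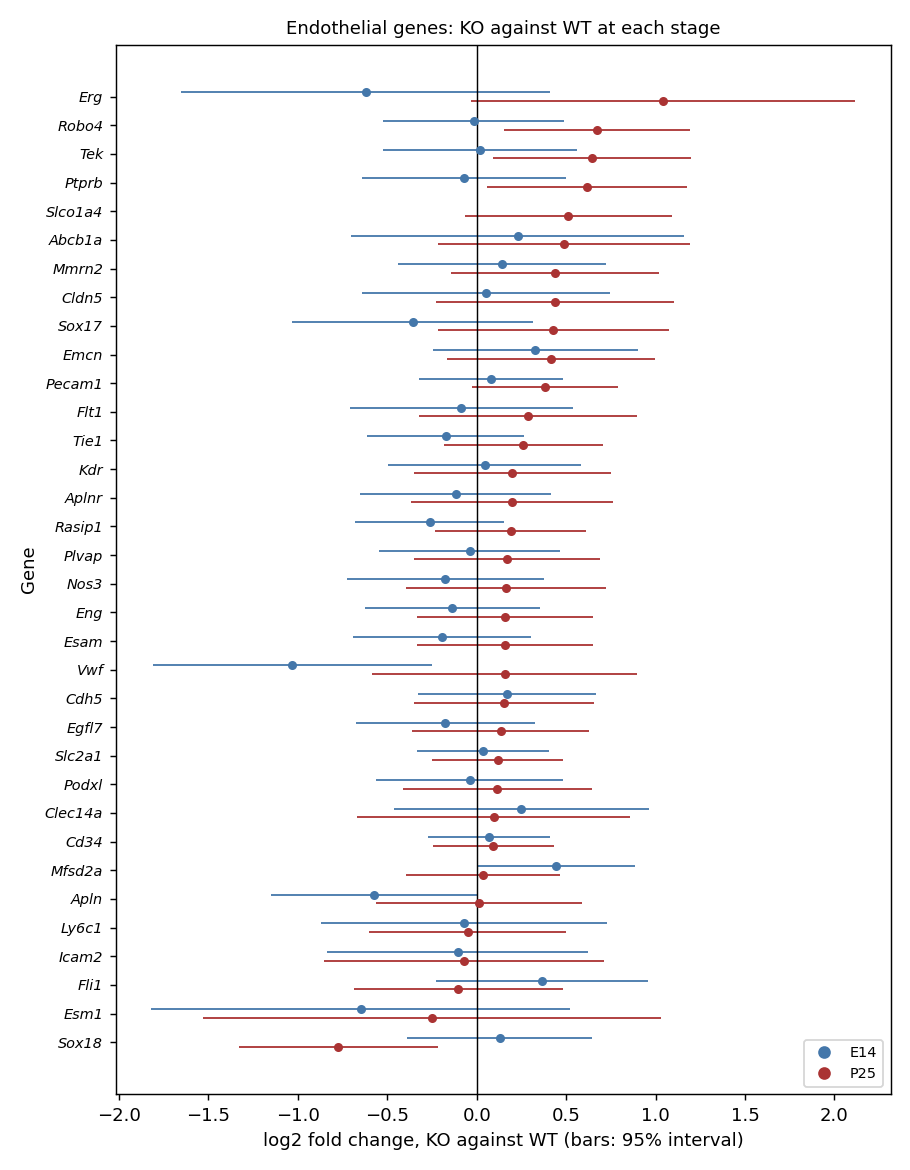
The horizontal axis is the log2 fold change of KO against WT for each gene at E14 (blue) and P25 (red), with bars for the 95% interval; Slco1a4 has no E14 point because it had 0 counts. None of the 34 genes was called at either stage, and at P25 29 of 34 points lie above 0, with Sox18 lowest at -0.77 and Erg highest at 1.04.

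The test of the difference itself asked whether the change from E14 to P25 was unlike in KO and WT. No gene was called among the 34 or among all 15109 (0% in either direction), and 4.28% of all genes had an unadjusted p under 0.05. DESeq2 called 8 of all genes and none of the 34. Of the 34 genes, 3 had an unadjusted p under 0.05, and they are named for that reason. Sox18 had an interaction of -0.90 on the log2 scale (SE 0.36, unadjusted p = 0.0222, edgeR adjusted p = 0.993), Erg of 1.66 (SE 0.71, unadjusted p = 0.0303, adjusted p = 0.993) and Vwf of 1.19 (SE 0.51, unadjusted p = 0.0323, adjusted p = 0.993). Without E14 WT replicate 2 the value for Vwf was 0.44. A positive sign was seen for 29 of the 34, where 55.4% of all genes were positive, and for 22 without P25 KO replicate 3. The interaction uses the same libraries as the genotype comparisons, so it is no separate evidence of their direction. Endothelial genes thus moved between the stages in both genotypes, and a difference between the genotypes in that movement was not called at this sample number.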

How the data were processed

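Each of the 16 files holds whole-number estimated counts per gene deposited by the authors. The tools kallisto 0.46, fastp 0.20.0 and DESeq2 1.32.0 and the build GRCm39 are named, per the submitters' processing notes; their role and order, the annotation and the strand setting of the counting are unknown here. Such estimates divide the reads of similar genes by a model. The library kit was for stranded mRNA, per the labels' protocols. Groups and replicate numbers came from sample titles.

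Counts of all genes were fitted in R 4.3.3 with edgeR 4.0.16 (TMM, filterByExpr, 1 mean per group over 16 libraries, quasi-likelihood F test, Benjamini-Hochberg adjustment over 15109 genes). Standard errors were derived from the F statistic. Symbols came from a gene name table (25614 of 25719 identifiers matched). Gene positions and transcript lengths are those of GENCODE M21 on GRCm38, not the build in the processing notes. Where a group had 0 counts, folds are bounds at 3 counts over the group. Counting intervals cover counting error only. The labels do not say that each ganglion came from another animal, so p-values measure only the spread between these libraries.

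The members, gene lists and tests were chosen with earlier results of these data known. Values in every library are given for the 5 genes of lowest p in each genotype comparison, the 6 that rose and the 6 that fell most in WT, and the barrier genes. Of other lists, a few genes are named by size of change or lowest p. Alternatives were DESeq2 1.42.0, other scalings and filters, a replicate block, summed ganglia, compared libraries only and leaving out each library. Figures used matplotlib 3.10.9.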

Additional observations from a re-analysis of the deposited data

Results flagged for a closer look

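In 10 of 136 groups of 4 libraries, 1 library lay far from the other 3 by Dixon's test at the 95% level. The E14 groups of Slco1a4, at 0 counts in every library, are among the 136 but could not be tested. Chance flags about 1 in 20 tested groups. In E14 WT, replicate 2 was high for Tie1 (47.5 CPM, others 24.9 to 28.5), Egfl7 (44.7 CPM, others 20.8 to 23.7) and Vwf (28.1 CPM, others 6.0 to 9.27). In P25 WT, replicate 4 was high for Egfl7 (56.1 CPM, others 36.1 to 38.3) and Esam (18.3 CPM, others 8.64 to 9.38) and low for Tek (2.90 CPM, others 3.22 to 3.29). In P25 KO, replicate 3 was high for Pecam1 (24.6 CPM, others 13.8 to 14.7) and Slc2a1 (97.2 CPM, others 70.5 to 72.9), and replicate 1 was low for Esm1 (0.165 CPM, others 0.302 to 0.319). In E14 KO, replicate 4 was high for Slc2a1 (62.9 CPM, others 46.3 to 49.1). What these libraries have in common was not tested.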

How the results depend on the processing

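A set of 39 results for single genes was followed over 24 settings, or 23 for the interaction. It covered the largest called stage changes in WT, the barrier genes, and the genes of lowest p for genotype and interaction. Of the 39, 38 kept their direction and call, and the exception was Slc2a1 in WT. The set was picked from the main fit, largely from big called changes and from results far from a call. This count therefore does not measure how stable the calls of the 34 genes were. Outside this set, stage calls changed in some settings for Egfl7, Apln, Cd34, Flt1, Esm1, Tek, Nos3, Ptprb and Sox17. No endothelial gene was called between genotypes, or for the interaction, in any setting that could be run. Called genes in WT numbered 24 to 28 over the settings and 24 to 27 with a library left out, and 23 of the 26 were called in every setting (not Apln, Egfl7 and Slc2a1). In KO they numbered 24 to 27, or 22 to 28 with a library left out, and 22 of 25 were called in every setting (not Flt1, Ptprb and Cd34). The median in KO was -0.21 with the stricter filter (1 CPM in 4 libraries) and -0.22 in the fit to the KO libraries; in both, 33 of the 34 genes were tested, which moves the middle of the list. The P25 genotype median ran from 0.092 to 0.32 with a library left out. With a replicate block, 25 genes in WT (Egfl7 lost) and 24 in KO (Cd34 lost) were called, and 0 between genotypes. Deviations from the group mean correlated from -0.52 to 0.36 between same-numbered libraries of different groups. Between different-numbered libraries of different groups they correlated from -0.50 to 0.62. These ranges show no pairing by title number, and with 4 libraries per group they cannot exclude one.

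Counts over all genes moved more. DESeq2 called 5 genes at E14, 17 at P25 and 8 for the interaction. Leaving out a library gave 1 to 5 at E14, 3 to 14 at P25 and up to 7 for the interaction. At P25 the block and the fit to P25 libraries each called 3, and summed ganglia 11. The cause was not tested. The interaction needs all groups, so it has no fit to compared libraries only. Genes near or under 1 CPM, such as Esm1, Erg in P25 WT and Abcb1a at E14, are limited by depth.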
